A study of Homo sapiens with 8 samples.

Results

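The methylation of adenosine at its N6 position (m6A) in messenger RNA depends on enzymes that add the mark, enzymes that take it off and proteins that bind it. The 10 genes described here cover these roles. METTL3 and METTL14 form the core of the writer, WTAP, VIRMA, RBM15 and ZC3H13 belong to its regulatory part, FTO and ALKBH5 are erasers, and YTHDF2 and YTHDC1 are readers. They were selected by gene name from a table of 60282 genes, 33219 of them with at least 1 count in some library. All 10 passed the filter on low counts, which 14073 genes passed and which asked for over 1 CPM (read counts put on the same library size) in 4 or more of the 8 libraries.

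The cells were SK-UT-1, an established line from a human uterine leiomyosarcoma, a malignant tumor of uterine smooth muscle. TP-472 binds the bromodomain of BRD9, a reader of acetylated histones that sits in a SWI/SNF chromatin remodeling complex. The control group was 4 libraries of SK-UT-1 cells given the vehicle, DMSO, and the treated group was 4 libraries of SK-UT-1 cells given TP-472 at 5 µM for 48 h. RNA from whole cultures of this single line was sequenced, with no genetic change of BRD9 and no second dose or time, so that the model is 1 cell line under 1 exposure. RNA levels were measured, and neither protein nor m6A itself was part of these files.

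The mark is laid down in the nucleus, mostly near stop codons and in the last part of the message, by METTL3 with a methyl group taken from S-adenosylmethionine. The regulatory proteins bring the METTL3 and METTL14 pair to its substrates. A marked message can then be spliced, exported, translated or degraded according to the reader that binds it, and erasers can return the base to plain adenosine.

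The libraries held between 32574716 and 36634184 estimated counts in the vehicle group and between 36246466 and 38545695 in the TP-472 group. At this depth the lowest count of any of the 10 genes in any library was 549, for METTL14. Vehicle replicate 3 stood apart from the other libraries. Its log2 deviations from the median library correlated across genes with GC content at a Spearman's rho of 0.67, against −0.38 to 0.037 in the other 7, as a description across genes that share 1 library. Its median Spearman correlation with the other vehicle libraries was 0.914, and every other library had at least 0.988 within its own group. It was the lowest vehicle library for 7 of the 10 genes and the highest for 2, whereas over all genes tested it was the lowest for 43.7% and the highest for 43.2%. TP-472 replicate 4 had the most negative correlation with GC content, −0.38. For the 10 genes, and for other named genes that passed, values that moved by over 1.5 times without vehicle replicate 3 are therefore given with and without it. SOD2 and TOX4, which overlap WTAP and METTL3, are an exception, since that fit was not tabulated for them. The groups were also apart in their trend with gene length. The log2 deviations correlated across genes with merged exon length at a Spearman's rho of 0.1001 to 0.309 in the vehicle libraries and of −0.297 to 0.058 in the TP-472 libraries, again as a description. This trend and the treatment cannot be told apart, and a fit that removes it also removes any response to TP-472 that goes with length.

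Of 7 smooth muscle markers, 6 passed the filter, with the smooth muscle actin gene ACTA2 the most abundant per kb and the smooth muscle myosin MYH11 below the filter. The summed level of the smooth muscle markers lay between 438 and 520 CPM in the vehicle libraries and between 370 and 379 CPM in the TP-472 libraries. All 5 mesenchymal markers passed, VIM being the most abundant per kb, and their sum lay between 2703 and 4272 CPM with vehicle and between 1981 and 2128 CPM with TP-472. The sum of 4272 CPM was that of vehicle replicate 3, and the other vehicle libraries were at 2703 to 2920 CPM. Of 5 epithelial markers 3 passed, KRT18 being the most abundant per kb, and their sum lay between 17.5 and 23.1 CPM with vehicle and between 20.4 and 26.8 CPM with TP-472. None of 3 endothelial markers (at most 0.581 CPM in sum, VWF leading) or 4 leukocyte markers (at most 1.07 CPM in sum, CD14 leading and CD3E at 0) passed. The sums hide members that moved in opposite directions. Among the epithelial markers, KRT18 rose 2.11-fold (adjusted p = 7.26e-04, edgeR), KRT19 fell to 0.555 of its vehicle level (adjusted p = 0.0151, edgeR), and EPCAM and CDH1 were below the filter. KRT8 was tested and did not pass (adjusted p = 0.0959, edgeR). Among the mesenchymal markers, the fibronectin gene FN1 rose 2.23-fold (adjusted p = 0.00339, edgeR) from under 2 CPM, and the collagen genes COL1A2 and COL1A1 fell to 0.168 and 0.197 (adjusted p = 1.74e-05 and 0.0222, edgeR). COL1A1 was highest in vehicle replicate 3, at 21.9 CPM, and fell to 0.365 without that library (adjusted p = 0.0142, edgeR). VIM and CDH2 did not pass with all libraries (adjusted p = 0.0983 and 0.571, edgeR). Without vehicle replicate 3, VIM fell to 0.866 of its vehicle level (adjusted p = 0.0394, edgeR). Among the smooth muscle markers, ACTA2, TAGLN and DES fell (adjusted p up to 0.00426, edgeR) and none of the others tested passed. MYH11, below the filter and not tested, was at 0 in all vehicle libraries but replicate 4, at 0.0281 CPM, and at 0.194 to 0.264 CPM with TP-472. The part of these marker differences in the results below was not tested. In RNA from whole cultures, fewer cells of a type and less RNA per cell cannot be told apart.

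TP-472 went with small differences in this set. YTHDF2, which sends m6A-marked messages to decay, and the writer subunits WTAP and RBM15 rose by 1.27- to 1.39-fold, and the eraser FTO fell to 0.787 of its vehicle level, a call that was lost once each library's trend with gene length was removed. By edgeR's quasi-likelihood test with Benjamini-Hochberg adjustment over all genes tested, 4 of the 10 passed an adjusted p of 0.05, 3 upward and 1 downward, where 36.3% of all genes tested passed, 17.2% upward and 19.1% downward. The count in the set is near that background. The catalytic subunit METTL3 and its partner METTL14, the subunits VIRMA and ZC3H13, the eraser ALKBH5 and the reader YTHDC1 did not pass.

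No gene of the set both passed and exceeded a 1.5-fold change, the limit under which 26.9% of all genes tested were called. That count of 0 was the same with DESeq2, which called 16.8% of the 33192 genes it was run on. Any gene that DESeq2's own filter left without an adjusted p counted there as not called, so that share is not like edgeR's. Limma-voom called 1, YTHDC1, where the log2 fold change was 0.59 at an adjusted p of 0.0439 in limma. It called 26.0% of all genes tested (12.9% higher). At an unadjusted p of 0.05, 5 of the 10 passed in edgeR, where 47.8% of all genes tested passed (22.3% higher, 25.5% lower). The median log2 fold change of the 10 was 0.22, beside −0.03 over all genes tested, and their median absolute log2 fold change was 0.33, beside 0.40. In 5 of the 10 the groups did not overlap, 4 higher and 1 lower with TP-472, where 45.4% of all genes tested did not overlap, 23.8% higher and 21.6% lower. With all libraries, all 10 varied less among the TP-472 libraries than among the vehicle libraries. This was also the direction over all genes tested, whose median coefficient of variation was 23.2% with vehicle and 7.90% with TP-472. Without vehicle replicate 3 the direction turned for ALKBH5 (SD 0.143 CPM with vehicle, 4.92 CPM with TP-472) and VIRMA (2.95 and 5.21 CPM). The other members kept it.

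**Figure D1:**
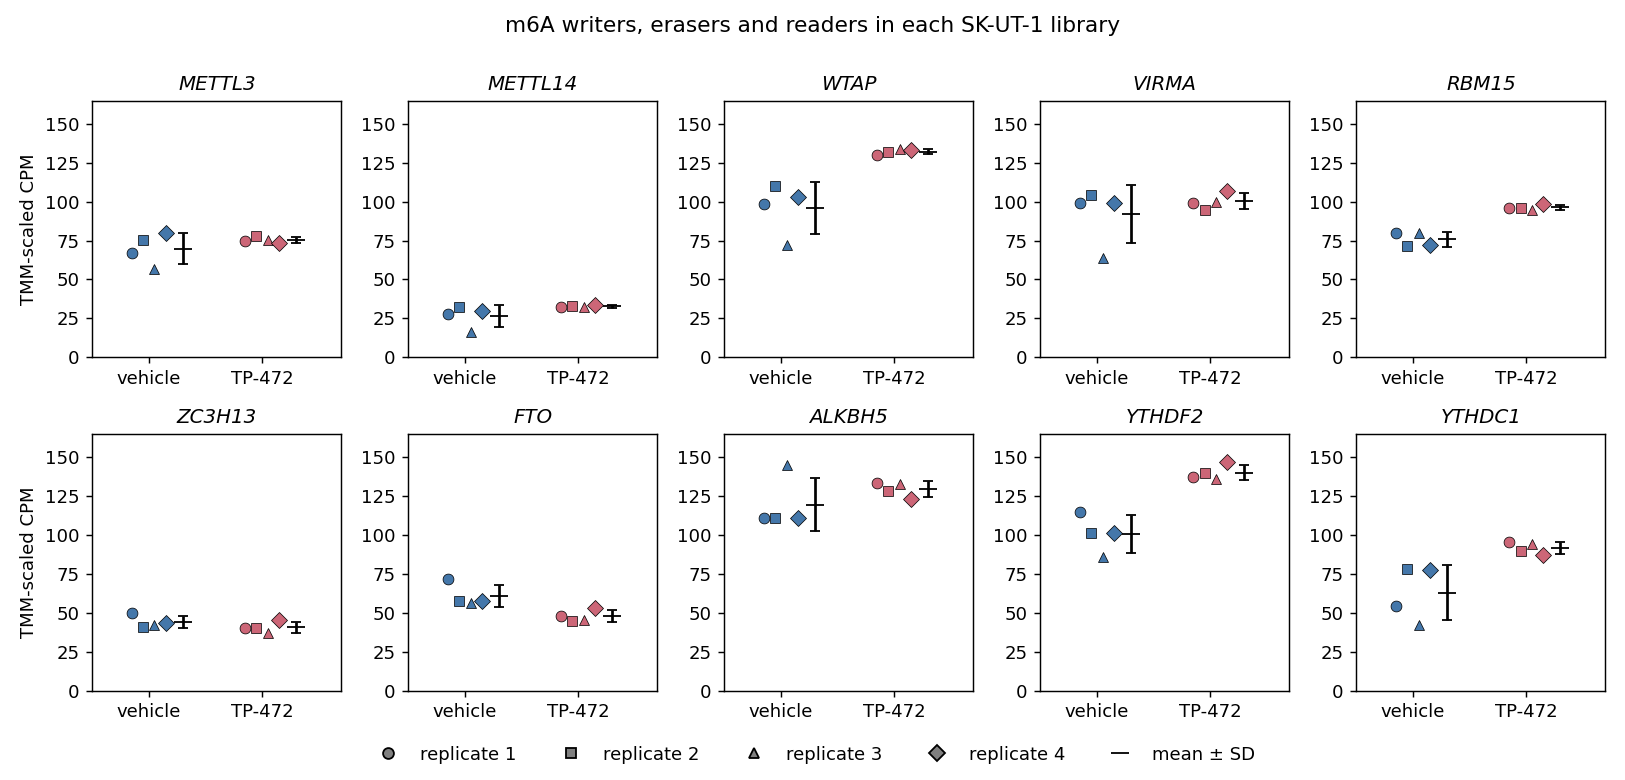
Level of each m6A gene in each SK-UT-1 library, in CPM scaled by the trimmed mean of M values (TMM), with replicates 1 to 4 as separate symbols and the mean ± SD of 4 libraries beside them. The vehicle and TP-472 points are separate for WTAP, RBM15, FTO, YTHDF2 and YTHDC1 and overlap for the other 5 genes, and vehicle replicate 3 (triangle) lies below the other vehicle points in 7 panels and above them for RBM15 and ALKBH5.

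METTL3 (ENSG00000165819.12, GRCh38 chr14:21498133-21511375, minus strand) encodes the catalytic subunit. Its TMM-scaled level was 67.0, 75.3, 57.0 and 79.98 CPM in vehicle replicates 1 to 4, and 74.4, 77.7, 75.3 and 73.2 CPM in TP-472 replicates 1 to 4. The TP-472 values lay inside the range of the vehicle values. The log2 fold change was 0.11 ± 0.119 (SE, n = 4 per group), with a 95% interval from −0.16 to 0.38 and an adjusted p of 0.502 in edgeR. The interval leaves out a 1.5-fold change, a log2 value of 0.585, in either direction. Without vehicle replicate 3, the lowest library, the log2 fold change was 0.020 (adjusted p = 0.819, edgeR), and without vehicle replicate 4, the highest, it was 0.18 (adjusted p = 0.291, edgeR).

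METTL14 (ENSG00000145388.15, chr4:118685368-118715433, plus strand) encodes the partner that binds RNA and has no methyl transfer activity of its own. It measured 27.5, 32.5, 15.9 and 29.7 CPM in the vehicle libraries and 32.0, 32.7, 32.0 and 33.9 CPM in the TP-472 libraries. Vehicle replicate 3 was the lowest by far, and vehicle replicate 2 lay within the TP-472 values. The log2 fold change of 0.31 ± 0.200 did not pass (adjusted p = 0.251, edgeR), and without vehicle replicate 3 it was 0.13 (adjusted p = 0.156, edgeR).

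WTAP (ENSG00000146457.16, chr6:159725585-159756319, plus strand) encodes the adaptor that holds the catalytic pair in nuclear speckles, and it rose. Its level was 98.6, 110.0, 72.1 and 102.7 CPM in the vehicle libraries, and 129.8, 132.1, 133.9 and 133.1 CPM in the TP-472 libraries. All values with TP-472 lay above all values with vehicle. The log2 fold change was 0.46 ± 0.134 (adjusted p = 0.0261, edgeR), and the exact two-sided permutation test gave p = 0.0286, the smallest that 70 assignments of 4 against 4 allow. Without vehicle replicate 3, from which the lowest value came, the log2 fold change was 0.35 (adjusted p = 7.40e-04, edgeR). The call was lost without vehicle replicate 1 (adjusted p = 0.0538, edgeR) and without any single TP-472 library (adjusted p up to 0.071, edgeR), with log2 fold changes of at least 0.46. It was also lost without a filter on low counts (adjusted p = 0.0722, edgeR).

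RBM15 (ENSG00000162775.16, chr1:110338506-110346681, plus strand), an RNA-binding subunit that directs the writer to particular messages, also rose. It measured 79.7, 71.2, 79.9 and 72.0 CPM with vehicle, against 96.1, 96.1, 94.6 and 98.3 CPM with TP-472. The groups were apart, and vehicle replicate 3 lay beside vehicle replicate 1. RBM15 had a log2 fold change of 0.35 ± 0.0890 (adjusted p = 0.0164, edgeR). This value stayed between 0.32 and 0.37 when any 1 library was left out, and the adjusted p rose above the threshold without TP-472 replicate 1, 2 or 3 (up to 0.0595, edgeR). The call was also lost with total-count scaling (0.31, adjusted p = 0.055, edgeR) and without a filter on low counts (adjusted p = 0.0868, edgeR).

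VIRMA (ENSG00000164944.12, chr8:94487693-94553529, minus strand), the large scaffold of the regulatory part, measured 99.4, 104.5, 64.1 and 99.4 CPM with vehicle and 99.3, 94.5, 99.8 and 107.1 CPM with TP-472. Apart from vehicle replicate 3 the 7 libraries lay in 1 narrow range. Its log2 fold change was 0.12 ± 0.155 (adjusted p = 0.544, edgeR), and −0.014 without vehicle replicate 3. ZC3H13 (ENSG00000123200.16, chr13:45954465-46052759, minus strand), which keeps the regulatory part in the nucleus, measured 49.8, 40.8, 42.0 and 43.6 CPM with vehicle and 40.4, 39.97, 36.8 and 45.5 CPM with TP-472. These ranges overlapped, and the log2 fold change was −0.12 ± 0.111 (adjusted p = 0.427, edgeR). It ran from −0.052 without vehicle replicate 1, the highest vehicle library, to −0.17 without TP-472 replicate 4, the highest TP-472 library, and none of the 8 fits that leave out 1 library passed.

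Within the regulatory part WTAP and RBM15 rose, while the 95% intervals of VIRMA, −0.23 to 0.47, and ZC3H13, −0.37 to 0.13, held 0. Differences between these subunits in their response were not tested.

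Among the erasers, FTO (ENSG00000140718.21, chr16:53701692-54158512, plus strand), which removes m6A and the methyl mark beside the cap, fell. Its level was 71.7, 57.3, 56.6 and 57.5 CPM in the vehicle libraries and 48.1, 44.5, 45.6 and 53.1 CPM in the TP-472 libraries. The highest value came from vehicle replicate 1, and the nearest pair between the groups was vehicle replicate 3 and TP-472 replicate 4. FTO had a log2 fold change of −0.35 ± 0.116 (adjusted p = 0.0442, edgeR). Without vehicle replicate 1 it was −0.26 (adjusted p = 0.101, edgeR). The call was also lost without vehicle replicate 2 or 4 or TP-472 replicate 1, 2 or 3 (adjusted p up to 0.125, edgeR), and FTO had a negative log2 fold change in all 8 fits that leave out 1 library. Total-count scaling (adjusted p = 0.0659, edgeR) and no filter on low counts (adjusted p = 0.11, edgeR) lost the call too. FTO has the longest merged exons of the set, 21379 bases, and 103 of the genes tested (0.737%) are at least as long. With each library's trend on exon length removed, its log2 fold change was −0.0031 (adjusted p = 0.983, edgeR), and with the longest transcript as the length it was −0.088 (adjusted p = 0.433, edgeR).

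ALKBH5 (ENSG00000091542.9, chr17:18183078-18209954, plus strand), the nuclear m6A demethylase, measured 111.1, 111.3, 145.0 and 111.0 CPM in the vehicle libraries. In the TP-472 libraries it measured 133.7, 128.6, 133.0 and 123.0 CPM. Vehicle replicate 3 was the highest of all 8, and the other 3 vehicle libraries lay together below every TP-472 library. With all libraries the log2 fold change was 0.12 ± 0.115 (adjusted p = 0.450, edgeR), and without vehicle replicate 3 it was 0.22 ± 0.0552 (adjusted p = 0.00717, edgeR). It did not pass when any other library was left out (adjusted p up to 0.648, edgeR).

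YTHDF2 (ENSG00000198492.16, chr1:28736621-28769775, plus strand) encodes the cytoplasmic reader that recruits the CCR4-NOT deadenylase to marked messages. It rose, and it was the member whose call depended least on the libraries used. Its level was 114.9, 101.1, 85.8 and 101.1 CPM with vehicle, and 137.2, 140.2, 136.0 and 147.1 CPM with TP-472. All TP-472 libraries lay above all vehicle libraries. YTHDF2 had a log2 fold change of 0.48 ± 0.109 (adjusted p = 0.0102, edgeR, and exact two-sided permutation p = 0.0286). It ran from 0.41 to 0.55 with each library left out in turn, and all 8 of these fits passed (adjusted p up to 0.0358, edgeR).

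A promoter window of YTHDF2 is shown because the call on this gene held in all 8 of these fits. RefSeq gives 2 windows for YTHDF2, and the one printed lies almost wholly outside exons. It covers the 250 bases before a RefSeq start, GRCh38.p14 chr1:28736374-28736623 on the plus strand, of which 3 bases are exonic in the annotation. Capitals mark the GC box, GGGCGG on either strand, which occurs 2 times here side by side.
YTHDF2 promoter: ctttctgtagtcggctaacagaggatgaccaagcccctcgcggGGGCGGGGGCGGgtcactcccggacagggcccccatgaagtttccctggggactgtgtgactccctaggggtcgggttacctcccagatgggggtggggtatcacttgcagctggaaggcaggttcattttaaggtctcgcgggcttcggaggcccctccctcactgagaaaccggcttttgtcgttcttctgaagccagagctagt
Of 35116 such windows, 42.6% hold a GC box on either strand, 32.0% a CCAAT box (CCAAT), 6.35% an E-box (CACGTG) and 4.20% an AP-1 site (TGACTCA). The last 3 motifs were not found in the window shown. The other YTHDF2 window, chr1:28736690-28736939, is wholly exonic and is not printed, and it holds 4 GC boxes and 1 CCAAT box. RefSeq windows were matched for 9 of the 10 genes by symbol.

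YTHDC1 (ENSG00000083896.12, chr4:68310387-68350089, minus strand), the nuclear reader that acts on splicing and export, measured 54.7, 77.9, 41.95 and 77.6 CPM with vehicle. With TP-472 it measured 95.6, 89.8, 94.4 and 87.5 CPM. The groups did not overlap, and the vehicle libraries spread widely, with replicates 1 and 3 low. Its log2 fold change, 0.54 ± 0.192, was the largest of the set and missed the threshold (adjusted p = 0.0531, edgeR, and exact two-sided permutation p = 0.0286). It passed without vehicle replicate 2 (0.66, adjusted p = 0.0327, edgeR), without vehicle replicate 3 (0.39, adjusted p = 0.0167, edgeR) and without vehicle replicate 4 (0.66, adjusted p = 0.036, edgeR), and it did not pass when any other library was left out (adjusted p up to 0.126, edgeR). With all libraries it passed with total-count scaling (0.53, adjusted p = 0.0384, edgeR), with a filter at 5 CPM (0.53, adjusted p = 0.0468, edgeR) and in limma-voom.

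**Figure D2:**
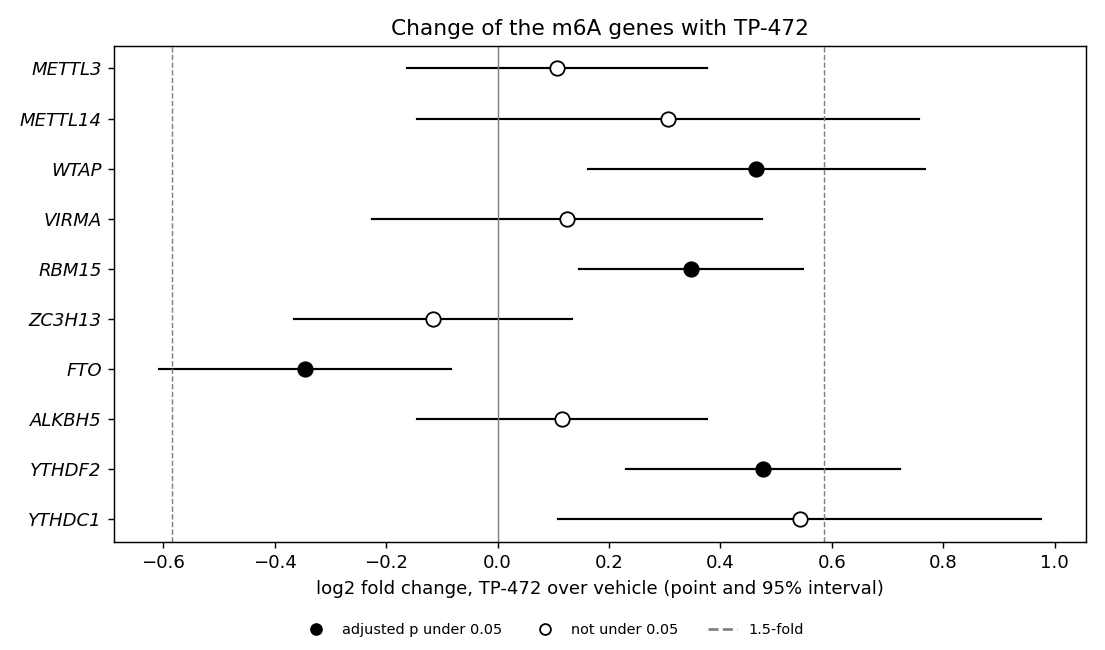
The log2 fold change of each m6A gene, TP-472 over vehicle, from edgeR on 4 libraries per group, as a point with its 95% interval, filled where the adjusted p was under 0.05. Dashed lines mark a 1.5-fold change in either direction, and every point lies between them, with YTHDC1 the farthest out at 0.54.

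Without vehicle replicate 3, 6 of the 10 genes passed, 5 upward and 1 downward, where 57.0% of all genes tested passed. The 5 that were higher were WTAP, RBM15, ALKBH5, YTHDF2 and YTHDC1, and the 1 that was lower was FTO. A fit that kept all 8 libraries and removed each library's trend with GC content also gave 5 higher and 1 lower, beside 25.8% higher and 26.4% lower over all genes tested, 52.1% in all. In that fit ALKBH5 had a log2 fold change of 0.26 (adjusted p = 0.00475, edgeR) and YTHDC1 of 0.41 (adjusted p = 0.0132, edgeR). METTL3 and VIRMA moved to −0.022 and −0.013, on the other side of 0 from their values without the correction. In both fits no gene of the set was called over 1.5-fold, where 25.5% of all genes tested were without vehicle replicate 3 and 28.1% (13.4% higher, 14.7% lower) with GC correction.

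With each library's trend on exon length removed, an alternative chosen after the data were seen, 4 of the 10 passed, all upward, where 35.3% of all genes tested passed (17.3% higher, 18.0% lower). They were WTAP (0.52, adjusted p = 0.0213, edgeR), RBM15 (0.33, adjusted p = 0.017, edgeR), YTHDF2 (0.42, adjusted p = 0.0193, edgeR) and YTHDC1 (0.62, adjusted p = 0.0433, edgeR). YTHDC1 was then called over 1.5-fold, where 25.6% of all genes tested were (11.6% higher, 14.0% lower). VIRMA moved to 0.32 (adjusted p = 0.158, edgeR), ALKBH5 to 0.046 (adjusted p = 0.758, edgeR) and ZC3H13 to 0.068 (adjusted p = 0.573, edgeR), on the other side of 0. FTO did not pass. The calls over the set were the same with the longest transcript as the length.

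**Figure D3:**
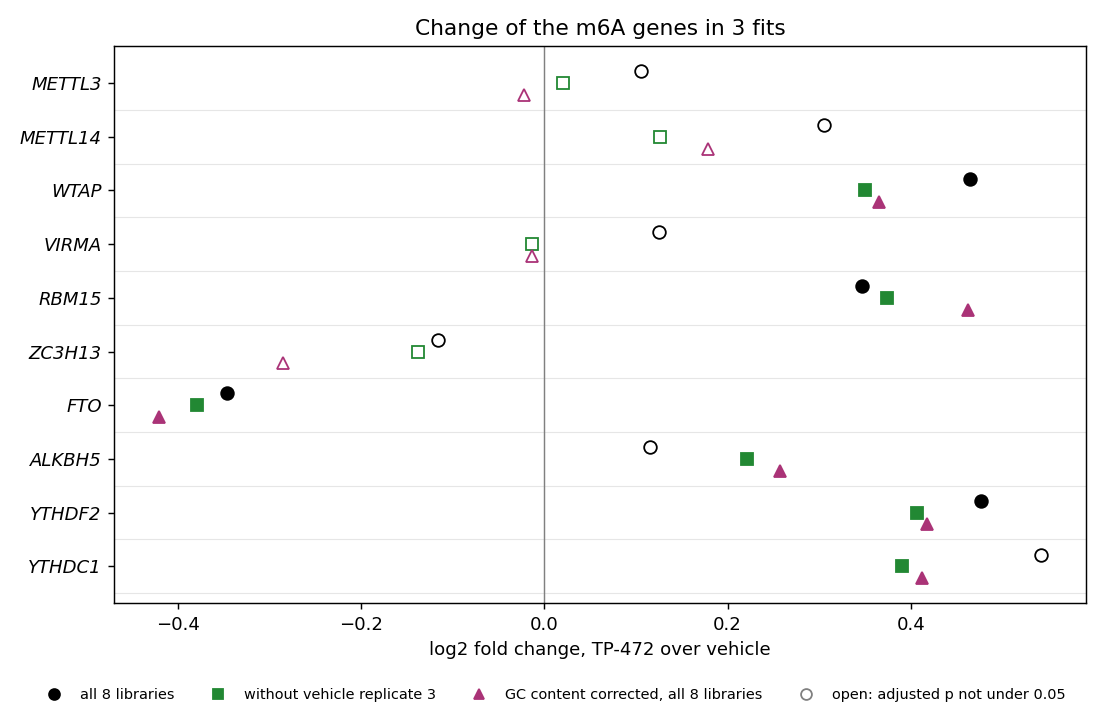
The log2 fold change of each m6A gene, TP-472 over vehicle, in 3 fits, with all 8 libraries (circles), without vehicle replicate 3 (squares) and with each library's GC trend removed (triangles), filled where the adjusted p was under 0.05. WTAP, RBM15, FTO and YTHDF2 are filled in all 3 fits, ALKBH5 and YTHDC1 in the last 2 only, and METTL3 and VIRMA lie at or near 0 in those 2.

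Levels were compared between genes only per length, as TMM-scaled CPM per kb of merged exons. ALKBH5 was the most abundant message in the vehicle libraries at 37.5 ± 5.31 CPM per kb (SD, n = 4), followed by YTHDF2 at 26.1 ± 3.09. RBM15 at 16.2 ± 1.01, WTAP at 14.9 ± 2.57, METTL3 at 11.9 ± 1.71, YTHDC1 at 8.96 ± 2.53 and VIRMA at 8.53 ± 1.74 followed. With all vehicle libraries, each neighbouring pair among these 5 differed by less than their summed SDs. Without vehicle replicate 3, WTAP exceeded METTL3 by more than the summed SDs and stood slightly above RBM15. ZC3H13 at 4.29 ± 0.386, METTL14 at 3.85 ± 1.06 and FTO at 2.84 ± 0.342 came last, also without a gap beyond the spread between neighbours. Without vehicle replicate 3, FTO lay below both METTL14 and ZC3H13 by more than the summed SDs. Gaps beyond the summed SDs separated ALKBH5 from YTHDF2, YTHDF2 from RBM15, and VIRMA from ZC3H13.

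With TP-472, YTHDF2 was at 36.3 ± 1.29 CPM per kb, beside ALKBH5 at 40.6 ± 1.54, and FTO remained the lowest at 2.24 ± 0.179. The order depended in part on the length used. Divided by the longest transcript, METTL3 took the third place in the vehicle libraries, RBM15 the fifth and METTL14 the last, and YTHDF2 at 47.9 CPM per kb stood above ALKBH5 at 47.2 with TP-472.

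**Figure D4:**
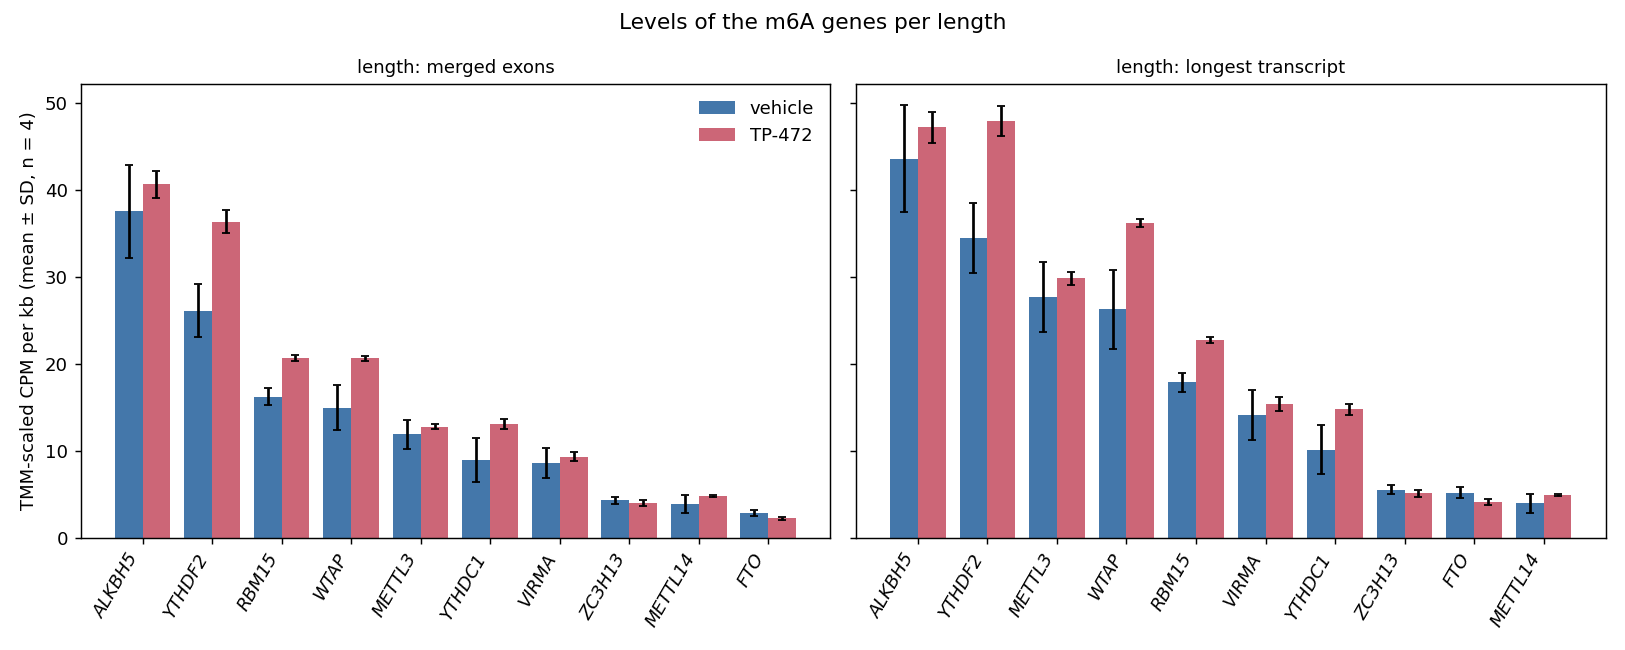
Levels of the m6A genes in TMM-scaled CPM per kb, divided by the merged exon length (left) or the length of the longest transcript (right), with bars at the mean of 4 libraries and error bars of 1 SD, in the order of the vehicle means. ALKBH5 and YTHDF2 lead and ZC3H13, METTL14 and FTO come last in both panels, while METTL3 and RBM15 change places with the length, around WTAP, as do VIRMA and YTHDC1 behind them.

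Ratios of CPM per kb within a library do not depend on how libraries were scaled. The ratio of WTAP to METTL3 was 1.35, 1.34, 1.16 and 1.18 in the vehicle libraries and 1.602, 1.56, 1.63 and 1.67 in the TP-472 libraries. It was higher in every TP-472 library than in any vehicle library, vehicle replicate 3 included. The ratio of METTL3 to METTL14, the subunits of the catalytic pair, was 3.21 ± 0.669 with vehicle and 2.68 ± 0.115 with TP-472, and the groups overlapped. Vehicle replicate 3 had the highest of these ratios, 4.18.

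The ratio of the eraser ALKBH5 to the eraser FTO was 13.4 ± 2.81 with vehicle and 18.3 ± 1.87 with TP-472. Vehicle replicate 3, at 17.2, lay above TP-472 replicate 4, at 15.5, and the other 3 vehicle libraries, at 10.4 to 13.0, lay below all TP-472 libraries. ALKBH5 has 3190 and FTO 21379 bases of merged exons, and the part of the libraries' length trend in this ratio was not tested. The ratio of the readers YTHDF2 to YTHDC1 was 3.07 ± 0.815 with vehicle and 2.79 ± 0.213 with TP-472, with overlapping groups.

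Some of these loci overlap another gene. SOD2, the mitochondrial superoxide dismutase, overlaps WTAP on the opposite strand and rose from 102.8 ± 17.6 to 153.2 ± 4.74 CPM (log2 fold change 0.58, adjusted p = 0.0109, edgeR). TOX4 overlaps METTL3 and rose by a log2 value of 0.33 (adjusted p = 0.0469, edgeR). The dependence of the SOD2 and TOX4 calls on vehicle replicate 3 was not tabulated. RPGRIP1L overlaps FTO and had a log2 fold change of −0.07 (adjusted p = 0.677, edgeR). The library kit is described differently in the labels and in the study's methods, with a strand-specific kit named only in the methods, so that the separation of WTAP from SOD2 and of METTL3 from TOX4 by strand is uncertain, and its part in the WTAP result was not tested. The processed pseudogenes WTAPP1, FTOP1 and YTHDF2P1 held at most 4 counts in any library.

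A further 7 lists give the surroundings of these genes in the pathway. Of their 71 genes 67 passed the filter, and of these 13 rose and 9 fell by adjusted p, where 17.2% and 19.1% of all genes tested did so. Without vehicle replicate 3 the counts were 23 and 21, beside 28.6% and 28.4%. With the 1.5-fold limit they were 11 and 5, beside 12.0% and 14.9% of all genes tested, and without vehicle replicate 3 they were 5 and 3, beside 12.0% and 13.4%. The counts of each list below are to be read beside these same shares. Of the 21 that passed apart from ALKBH2, for which these fits were not tabulated, 9 did so in all 8 fits that leave out 1 library, namely MAT2A, AHCYL1, ALKBH8, ALKBH1, ALKBH3, IGF2BP3, NXF1, BCL2 and SOCS2.

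Among 8 other writers and associated factors, 1 rose and 1 fell, and without vehicle replicate 3 these counts were 2 and 3. METTL16, which methylates the U6 small nuclear RNA and hairpins of MAT2A, rose from 64.2 ± 1.44 to 77.7 ± 3.35 CPM (log2 fold change 0.27, adjusted p = 0.0346, edgeR), with no overlap between the groups. It did not pass when any library other than vehicle replicate 3 was left out (adjusted p up to 0.113, edgeR). PCIF1, which methylates the base beside the cap, measured 19.9, 12.7, 41.5 and 13.7 CPM with vehicle and 10.4, 10.4, 10.9 and 11.3 CPM with TP-472. PCIF1 fell by 1.03 on the log2 scale with all libraries (adjusted p = 0.046, edgeR) and by 0.52 without vehicle replicate 3 (adjusted p = 0.0116, edgeR), the library with its highest value. It lost the call without vehicle replicate 1 or any TP-472 library (adjusted p up to 0.105, edgeR).

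Among 16 other readers, 2 rose and 2 fell, and without vehicle replicate 3 these counts were 4 and 6. YTHDF3, a close relative of YTHDF2, measured 102.2, 95.8, 61.4 and 96.3 CPM with vehicle and 130.2, 128.0, 127.0 and 150.1 CPM with TP-472. It rose by a log2 value of 0.59 (adjusted p = 0.0218, edgeR), with 0.45 without vehicle replicate 3, and missed the threshold without TP-472 replicate 1, 2 or 4 (adjusted p up to 0.0617, edgeR). The third relative, YTHDF1, had a log2 fold change of 0.11 (adjusted p = 0.512, edgeR), and of 0.21 without vehicle replicate 3 (adjusted p = 0.0369, edgeR). IGF2BP3, of a family described to stabilize marked messages, fell from 98.5, 96.1, 73.4 and 98.4 CPM to 61.0, 58.7, 59.7 and 62.6 CPM. Its log2 fold change was −0.60 (adjusted p = 0.00508, edgeR), and −0.69 without vehicle replicate 3, its lowest vehicle library. IGF2BP2 fell as well, by 0.79 on the log2 scale (adjusted p = 0.0474, edgeR) and by 0.44 without vehicle replicate 3 (adjusted p = 0.0174, edgeR). RBMX, a nuclear RNA-binding protein, rose by a log2 value of 0.60 (adjusted p = 0.0469, edgeR), and by 0.42 without vehicle replicate 3. IGF2BP2 and RBMX each lost the call without vehicle replicate 1 or any TP-472 library (adjusted p up to 0.115 and 0.105, edgeR).

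Of 7 other AlkB-family genes, relatives of ALKBH5 and FTO that act on other substrates, 4 rose and 1 fell with and without vehicle replicate 3, with a median log2 fold change of 0.59 and of 0.51 without it. ALKBH8, which modifies the wobble position of transfer RNA, measured 17.7, 19.5, 10.1 and 17.5 CPM with vehicle and 33.5, 31.1, 34.02 and 35.6 CPM with TP-472. Its TP-472 values were far above its vehicle values, at a log2 fold change of 1.05 (adjusted p = 0.00401, edgeR) and of 0.88 without vehicle replicate 3. ALKBH1, ALKBH3 and ALKBH2 rose by log2 values of 0.59, 0.60 and 0.61, with adjusted p from 0.00711 to 0.0139 in edgeR. ALKBH6 fell by 0.52 on the log2 scale (adjusted p = 0.0417, edgeR), from under 6 CPM, and kept the call in 1 of the 8 fits that leave out 1 library, the one without vehicle replicate 3 (adjusted p up to 0.0998 in the others, edgeR). Over 1.5-fold, 4 of the list were called with all libraries and 1 without vehicle replicate 3, all higher. In both fits 12.0% of all genes tested were called higher with that limit. By adjusted p alone, 17.2% rose and 19.1% fell with all libraries, and 28.6% and 28.4% without vehicle replicate 3.

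The enzymes that supply S-adenosylmethionine, the methyl donor of METTL3, held the largest rise among the lists. Of 7 that passed the filter 1 rose and 2 fell, and without vehicle replicate 3 these counts were 1 and 4. MAT2A, which makes S-adenosylmethionine outside the liver, measured 210.4, 197.9, 164.1 and 201.2 CPM with vehicle and 434.2, 417.9, 403.3 and 499.8 CPM with TP-472. The groups were far apart. MAT2A had a log2 fold change of 1.18 ± 0.121 (adjusted p = 2.64e-04, edgeR), and it stayed between 1.11 and 1.23 with each library left out. AHCYL1 and AHCYL2, relatives of the hydrolase that clears the spent donor, fell by 0.44 and 0.41 on the log2 scale (adjusted p = 0.0117 and 0.0389, edgeR). AHCYL2 lost the call without vehicle replicate 1 or any TP-472 library (adjusted p up to 0.113, edgeR) and with length correction (adjusted p = 0.056, edgeR). MAT1A, the liver form, was below the filter.

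MAT2A is also a known substrate of the writer METTL16, which reads a hairpin sequence in the last part of the message, and its sites are printed because it had the largest rise in these lists. A search of its longest coding transcript for UACAGANAA on the sense strand found 6 matches, all after the stop codon. They lie on the plus strand of GRCh38 chromosome 2, and the first and last windows are chr2:85543804-85543828 and chr2:85545114-85545138. Capitals mark the motif.
MAT2A site 1: gcguaggcUACAGAGAAgccuucaa
MAT2A site 2: ugaugucaUACAGAGAAgucacagg
MAT2A site 3: gguguagcUACAGAGAAaccagcuu
MAT2A site 4: ggcguaagUACAGAGAAgccaucac
MAT2A site 5: agguguccUACAGAAAAaccuuggg
MAT2A site 6: ugguguggUACAGAGAAgccagcuu
Of 19684 protein-coding genes searched in the same way, 10.8% hold at least 1 match and 3, MAT2A among them, hold at least 6. This search was chosen after the values of MAT2A were seen, and a match is a description of sequence. Methylation at these sites was not measured.

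Of 20 genes that work with the readers or the writer, 4 passed, where 36.3% of all genes tested did. Of 11 CCR4-NOT genes, the deadenylase that YTHDF2 recruits, CNOT9 alone passed (log2 fold change 0.25, adjusted p = 0.0481, edgeR), and it kept the call in 1 of the 8 fits that leave out 1 library (adjusted p up to 0.115 in the others, edgeR). The median of that list was −0.08. Without vehicle replicate 3, 7 of the 11 passed, CNOT7, CNOT9 and CNOT10 upward and CNOT2, CNOT6, CNOT6L and CNOT8 downward, with a median of −0.23, where 57.0% of all genes tested passed. Of 9 nuclear partners of YTHDC1 and of the writer, 2 rose and 1 fell, and without vehicle replicate 3 these counts were 5 and 1. NXF1, the export receptor for messenger RNA, measured 43.4, 36.7, 53.4 and 38.7 CPM with vehicle and 80.1, 74.1, 73.6 and 82.5 CPM with TP-472. It rose by a log2 value of 0.85 (adjusted p = 0.00188, edgeR), and by 0.97 without vehicle replicate 3, its highest vehicle library. SRSF3, a splicing factor that binds YTHDC1, rose by a log2 value of 0.65 (adjusted p = 0.037, edgeR) and by 0.47 without vehicle replicate 3, and CPSF1, a cleavage and polyadenylation factor, fell by 0.93 on the log2 scale (adjusted p = 0.0411, edgeR) and by 0.46 without vehicle replicate 3. SRSF3 and CPSF1 lost the call without vehicle replicate 1 or any TP-472 library (adjusted p up to 0.092 and 0.0966, edgeR).

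Of 12 messages whose control by m6A was described in other cells, 9 passed the filter, 2 rose and 2 fell, and without vehicle replicate 3 these counts were 4 and 2. BCL2, an inhibitor of cell death, rose from 8.06, 8.51, 6.86 and 8.80 CPM to 12.6, 12.2, 11.9 and 13.3 CPM (log2 fold change 0.63, adjusted p = 0.00541, edgeR). This is RNA, and by Western blot the study reported the opposite for BCL-2 protein in SK-UT-1 cells, a decrease that grew with the dose of TP-472. The cause of this difference was not tested. SOCS2, an inhibitor of cytokine signaling, rose by a log2 value of 0.79 (adjusted p = 0.0147, edgeR), at 1.63 to 2.06 CPM with vehicle and 2.46 to 3.99 CPM with TP-472. SP1, the factor that binds GC boxes, fell by 0.40 on the log2 scale (adjusted p = 0.0156, edgeR), and lost the call without TP-472 replicate 1, 2 or 3 (adjusted p up to 0.0595, edgeR). FOXM1, a factor of cell division genes, fell by 0.88 (adjusted p = 0.0379, edgeR) and by 0.51 without vehicle replicate 3, and lost the call without vehicle replicate 1 or any TP-472 library (adjusted p up to 0.0966, edgeR). ASB2, IFNB1 and NANOG were below the filter.

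**Figure D5:**
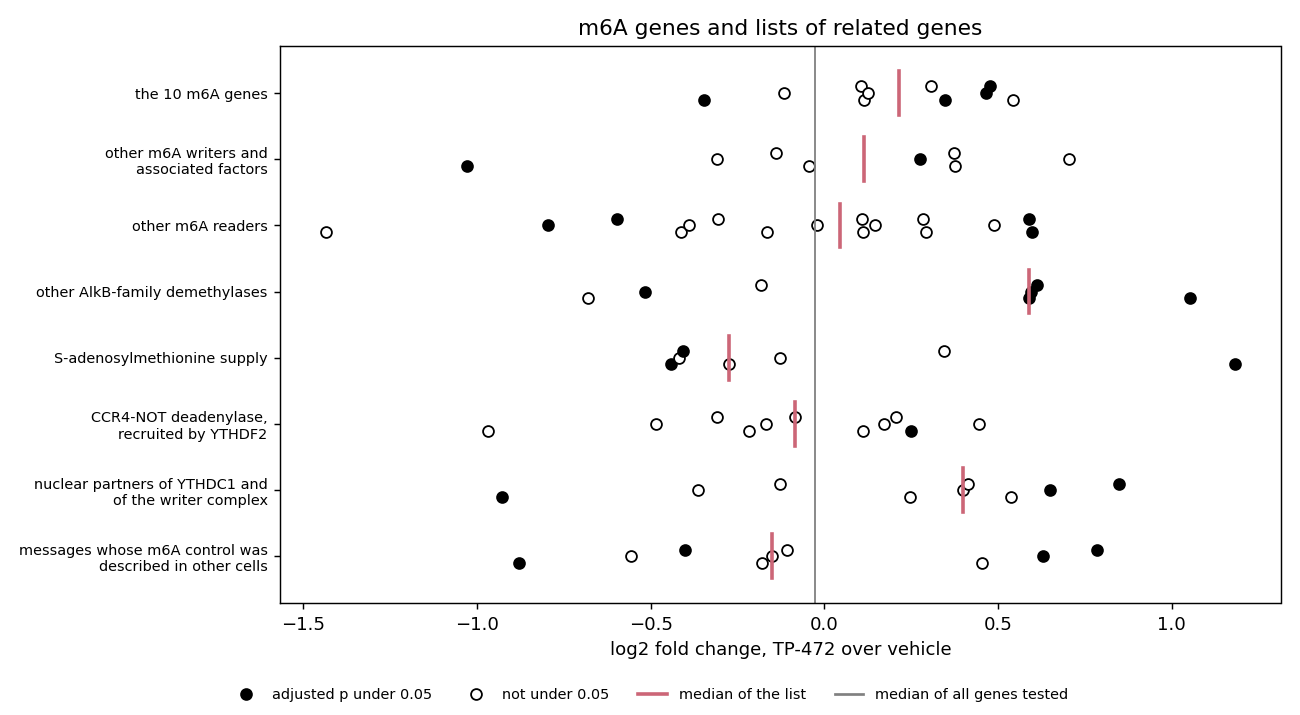
The log2 fold change, TP-472 over vehicle, of the 10 m6A genes and of each gene that passed the filter in 7 related lists, with filled points for an adjusted p under 0.05, a red bar at the median of each list and a grey line at the median of all genes tested (−0.03). The AlkB list has the highest median (0.59), and the point farthest to the right is MAT2A at 1.18.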

How the data were processed

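RNA from SK-UT-1 cells was sequenced in 8 libraries, 4 per group by GEO's treatment labels. The deposited values are estimated counts per gene, not normalized, which the authors obtained with Salmon (version 1.4.0, build GRCh38, per the submitters' processing notes) against GENCODE release 34 and summarized with tximport. The study's methods also name mapping with STAR. Here they were rounded, filtered (more than 1 CPM in at least 4 libraries), scaled by TMM and tested with edgeR 4.0.16 (quasi-likelihood, Benjamini-Hochberg over all genes tested) in R 4.3.3. Genes were called at an adjusted p under 0.05, with or without a 1.5-fold change. DESeq2 1.42.0, limma-voom (limma 3.58.1), other scalings, filters, the replicate block, GC correction and leaving out each library were alternatives. GC correction subtracted each library's lowess trend (span 0.3) of log2 deviation on gene GC content, and length correction, chosen after the data were seen, did the same on log2 gene length (merged exons or longest transcript). CPM values are TMM-scaled, and log2 fold changes are edgeR's. Exact permutation tests used the 70 assignments. Positions and lengths came from GENCODE release 29, promoters from RefSeq (GRCh38.p14).

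The study's methods say of all experiments that they used biological replicates. Neither they nor the labels say that these libraries came from separate cultures, so p-values measure the spread between these libraries, which may be technical. The members and lists were chosen with earlier results of these data known. All 10 members are named, and in each list up to 3 genes per direction with the lowest adjusted p among those that passed, along with overlapping neighbours and genes a sentence is about (YTHDF1, ALKBH2 and the CCR4-NOT genes other than CNOT9 were added after their values were seen). The scripts were tested on simulated data. There a first limit on the number of changes recovered was missed by the replicate block and by the uncorrected fit under a simulated GC trend, and a limit on the error and sign of the fold changes took its place. The lowest count in any library was 549 among the 10 members and 58, for SOCS2, among the list genes named by rule.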

Additional observations from a re-analysis of the deposited data

Results flagged for a closer look

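A library far from the other 3 of its group was found in 10 of 70 gene and group combinations tested, where chance gives about 1 in 20, and 6 of the 10 were at vehicle replicate 3. The measure is the gap to the nearest other library divided by the range of the group. Among the 10 m6A genes it was 0.874 for VIRMA with vehicle, where replicate 3 was at 64.1 CPM and the others at 99.4 to 104.5. For ALKBH5 with vehicle it was 0.992, with replicate 3 at 145.0 CPM and the others at 111.0 to 111.3. For FTO with vehicle it was 0.941, with replicate 1 at 71.7 CPM and the others at 56.6 to 57.5. In the related lists, vehicle replicate 3 stood apart for YTHDF3 (0.845), IGF2BP3 (0.905), ALKBH1 (0.937) and CPSF1 (0.899). TP-472 replicate 4 stood apart for YTHDF3 (0.862) and AHCYL1 (0.836), and TP-472 replicate 3 for ALKBH6 (0.881). The cause of these gaps was not tested.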

How the results depend on the processing

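Over all genes tested, 2418 rose and 2684 fell by adjusted p, 1693 and 2096 with the 1.5-fold limit. DESeq2 was run on 33192 genes, the number in edgeR without a filter on low counts, and called 2678 higher with that limit (8.07%). Any gene that DESeq2 left without an adjusted p counted as not called in that share. Tool and gene set thus changed together, and edgeR without that filter called 2393 higher. A test against a 1.5-fold change called 529 and 594, and GC correction without vehicle replicate 3 gave 4154 and 4047 by adjusted p. With 1 library left out, the counts ran from 1541 to 4024 higher and 1581 to 4000 lower by adjusted p, and from 1303 to 1824 and 1387 to 2399 with the limit. Of the 10 m6A genes, 3 rose and 1 fell by adjusted p. These counts were 1 and 0 without a filter on low counts (8.06% and 8.98% of all genes tested). They were 3 and 0 with total-count scaling (16.4% and 18.4%), where YTHDC1 gained a call and RBM15 and FTO lost theirs. With GC correction 5 were higher (25.8%), as also with the replicate block and GC correction (21.3%) and with GC correction without vehicle replicate 3 (29.5%). Length correction gave 4 and 0, and 1 higher with the limit, by either length, and ZC3H13 reversed to 0.068 with exon length and 0.058 with the longest transcript. With the 1.5-fold limit 0 were called, limma-voom called 1 higher (12.9% of all genes tested), and with no limit on the fold 3 were higher and 1 lower. With 1 library left out, 1 to 5 were higher and 0 to 1 lower by adjusted p, and 0 to 1 were higher with the limit. METTL3 reversed to −0.022 with GC correction, −0.021 with the block and GC correction and −0.011 with GC correction without vehicle replicate 3, and VIRMA to −0.013, −0.013 and −0.036, and to −0.014 without vehicle replicate 3 alone (−0.014 to 0.19 over the fits with 1 library left out). YTHDF2 kept its call in every alternative except the test against a 1.5-fold change. The exact permutation p of FTO was 0.0571 on CPM by total count. The highest level per kb over the lowest was 13.2 and became 11 with the longest transcript.

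Of the related lists, 13 rose and 9 fell by adjusted p, and 11 and 5 with the limit. The higher count with the limit was 7 with upper-quartile scaling (11.3% of all genes tested), total-count scaling (11.3%), no filter (7.21%), a filter at 5 CPM (10.4%), GC correction (13.4%) and GC correction with the block (13.1%). The lower count with the limit was 1 with limma-voom (13.1% of all genes tested) and with the block (11%). It was 3 with total-count scaling (14.9%), a filter at 5 CPM (13.7%) and GC correction with the block (13.1%). Limma-voom and total-count scaling gave 5 lower by adjusted p, beside 17.2% and 18.4% of all genes tested. GC correction gave 22 (26.4%), and GC correction with the block 15 (20.7%). GC correction without vehicle replicate 3 gave 25 higher (29.5%) and 21 lower (28.8%), and 5 and 2 with the limit (12.4% and 12.9%). With 1 library left out the counts ran from 8 to 23 higher and 2 to 21 lower, and from 5 to 12 and 0 to 5 with the limit. The causes of these shifts were not tested.

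No pairing by replicate number was seen. Same-numbered libraries correlated in their deviations from the group means at −0.055, 0.116, −0.171 and −0.177, and libraries with different numbers at −0.299 to 0.398. These correlations cannot show that the libraries were unpaired, since vehicle replicate 3 alone stood far from its group. With the replicate block, 1678 genes were higher and 1699 lower by adjusted p (11.9% and 12.1%). With the 1.5-fold limit these counts were 1500 and 1555 (10.7% and 11%). By adjusted p, 1 m6A gene was higher (YTHDF2) and 0 lower in that fit. Of the lists, 9 genes were higher and 1 lower, with and without the limit.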
